A study of Homo sapiens with 24 samples.

Results

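The 10 genes described here are members of the BCL2 family, which regulates the mitochondrial route of apoptosis. They were taken by symbol from a table of read counts for 23354 genes, and all 10 symbols were in the table. By role they are the anti-apoptotic members BCL2, MCL1, BCL2L1 (BCL-XL) and BCL2A1 (BFL-1), the BH3-only members BCL2L11 (BIM), PMAIP1 (NOXA), BBC3 (PUMA) and BID, and the effectors BAX and BAK1. The RNA-seq libraries came from MV4-11 and KG-1a, established lines labelled as acute myeloid leukemia (AML) with wild-type (WT) genotype. The cells were left untreated or were given 1 μM of the nucleoside analog 8-chloro-adenosine (8CA) or 8-amino-adenosine (8AA) for 8 h or 24 h. The 12 groups of line, treatment and time held 2 libraries each, called A and B. The hours of the untreated libraries come from their titles alone. Each line is 1 established culture, and no source used here says that A and B came from separate cultures, so the p-values measure the spread between these libraries, which may be technical.

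Commitment to apoptosis is set at the mitochondrial outer membrane. BAX and BAK1 form the pores that release cytochrome c, anti-apoptotic members such as BCL2 and MCL1 hold them in check, and BH3-only members are induced or activated by stress and either block the anti-apoptotic members or act on the effectors. AML cells commonly depend on BCL2 or MCL1 for survival, and BCL2 is the target of the drug venetoclax. These are properties of the proteins, and the values below are mRNA.

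Total counts per library lay between 18633963 and 24520078. The A and B libraries of a group differed by a chi-square per degree of freedom of 1.43 to 5.20 over genes, except for the 8AA 24 h libraries of KG-1a, at 12.25. Which of those 2 libraries stands apart cannot be told from a pair, so calls that rest on them are given with what the fits without either library showed. A group left with 1 library takes its spread from the other groups. Without either of these 2 libraries, the pair that differed most no longer adds to the spread. A call kept in those fits has therefore not passed a stricter test. Of 10 myeloid markers, MV4-11 carried FLT3, CD33, LYZ, SPI1, CSF1R, MEIS1 and PTPRC, with CD34 at no more than 4 counts in a library. Levels are in CPM, read counts normalised to library size, here scaled by TMM over all 24 libraries. PTPRC stood at 80.9 to 152 CPM in MV4-11 and at 688 to 788 CPM in KG-1a. MPO was low in MV4-11, at 8.01 to 13 CPM. KG-1a carried CD34, PTPRC and HOXA9, the last at 22.3 to 27.9 CPM against 7.11 to 9.40 CPM in MV4-11. SPI1 was low in KG-1a, at 5.86 to 7.81 CPM, MEIS1 was at 0, and CD33 (up to 21 counts), LYZ (up to 30 counts), FLT3 (up to 28 counts), CSF1R (up to 4 counts) and MPO (up to 54 counts) were near 0. Of 13 markers of other cell types, KG-1a held the T cell genes CD3D at 174 to 264 CPM and CD3E at 22.2 to 78.3 CPM, and ITGA2B at 53.3 to 69.3 CPM. Their summed level in KG-1a at 24 h was 345 and 356 CPM untreated, 269 and 261 CPM with 8CA, and 404 and 340 CPM with 8AA. At 8 h the sum lay between 321 and 351 CPM in every KG-1a group, and in MV4-11 between 5.56 and 11.1 CPM at both times. Its part in the KG-1a results below was not tested.

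In untreated cells the most abundant family mRNA per length was BAX in MV4-11 and MCL1 in KG-1a. Levels are given as RPKM, read counts normalised to exon length and library size, scaled by TMM over all 24 libraries, as the mean ± SD of the 4 untreated libraries of a line. In MV4-11 BAX stood at 110 ± 5.38, MCL1 at 61.2 ± 2.62 and BCL2 at 39.5 ± 2.67 RPKM. BID followed at 29.7 ± 0.746, BAK1 at 15.4 ± 0.729 and BCL2L1 at 10.8 ± 0.285 RPKM. Below these were PMAIP1 (8.85 ± 1.19), BCL2L11 (5.99 ± 0.331) and BBC3 (5.36 ± 0.306), whose places within the pairs BCL2L1 and PMAIP1, and BCL2L11 and BBC3, cannot be told apart because the libraries overlap. In KG-1a MCL1 (45.9 ± 1.63), BCL2 (41.4 ± 1.15) and BAX (39.3 ± 1.93) led, with BCL2 and BAX overlapping. BAK1 (22.0 ± 1.81) overlapped BCL2L1 (21.0 ± 1.01), and PMAIP1 (17.3 ± 1.48) overlapped BID (17.2 ± 0.764). BCL2L11 stood at 6.18 ± 0.292, BCL2A1 at 4.20 ± 0.499 and BBC3 at 0.264 ± 0.0318 RPKM. The plot of untreated levels shows the lines apart at most members, with BBC3 and BCL2A1 farthest.

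**Figure D1:**
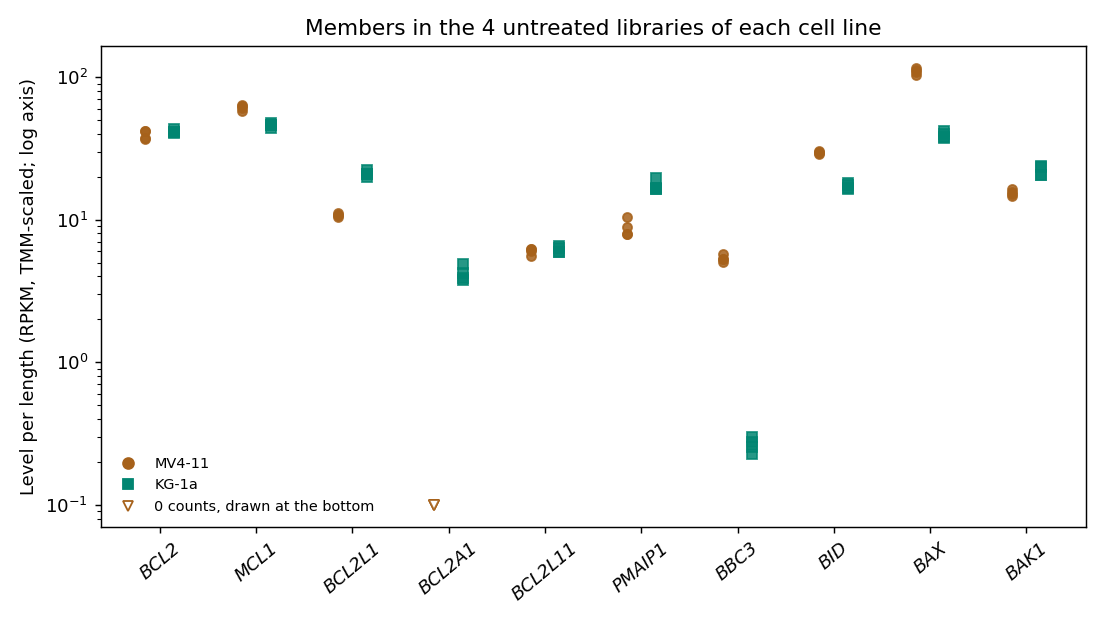
Level per length (RPKM, log axis) of the 10 members in the 4 untreated libraries of MV4-11 (circles) and of KG-1a (squares), 1 point per library. BBC3 lies near 5 RPKM in MV4-11 and under 1 RPKM in KG-1a, and BCL2A1 had 0 counts in all 4 untreated MV4-11 libraries (open triangle, drawn at the bottom of the axis).

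The lines differed at baseline in most members, and so did most genes. Against KG-1a, untreated MV4-11 differed in 8 of the 9 members with counts in both lines at 8 h and in 7 at 24 h. BCL2A1 passed the filter through KG-1a alone and is left out of that count. Here and below a gene is called where the quasi-likelihood test of edgeR, adjusted after Benjamini-Hochberg, gave a p under 0.05. At baseline 82.2% of the 14055 genes tested were called at 8 h and 82.0% at 24 h. BBC3, the p53-responsive BH3-only gene, had 216 and 254 counts in MV4-11 against 10 and 10 in KG-1a at 8 h, and 230 and 227 against 12 and 12 at 24 h. It was 23.0-fold higher in MV4-11 at 8 h and 17.8-fold at 24 h (adjusted p = 1.90e-16 and 6.16e-16), with no overlap of libraries. BAX was higher in MV4-11 as well, 2.80-fold at 8 h and 2.81-fold at 24 h, as were BID (1.70-fold and 1.76-fold) and MCL1 (1.32-fold and 1.34-fold). BCL2L1 (1.89-fold at 8 h, with a 95% interval of the log2 fold change of −1.16 to −0.84 at 24 h), PMAIP1 (1.96-fold and 1.95-fold) and BAK1 (1.38-fold and 1.48-fold) were higher in KG-1a. BCL2A1 had 1 count over all 12 MV4-11 libraries and 75 to 88 counts in each untreated KG-1a library. Set against a floor of 3 counts in 1 MV4-11 library, it was at least 24.3-fold higher in KG-1a at 8 h and at least 28.6-fold at 24 h. BCL2L11 was not called at either time. BCL2 was lower in MV4-11 at 8 h (log2 fold change −0.18, adjusted p = 7.08e-04), a call lost without library B of untreated KG-1a at 8 h (−0.07, adjusted p = 0.222).

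For each treated group the question was which members moved against the untreated libraries of the same line and time. Each line had its own fit, with 12800 genes for MV4-11 and 12711 for KG-1a, and 9 members passed the filter on low counts in MV4-11, where BCL2A1 did not, and all 10 in KG-1a. In 76 tests of a member, 17 were called lower, 13 higher and 46 were not called. At 24 h in MV4-11, 8CA lowered BID and BAX and raised BCL2 and BBC3, which is 2 members called lower and 2 higher, where 22.7% of all genes were called lower and 21.2% higher. With 8AA at 24 h MCL1, BID and BAX were lower and no member was higher, against 15.3% and 13.9% of all genes. That split turned on the scaling, as with library size only and with upper-quartile scaling none of the 3 was called lower and BCL2 was called higher. At 8 h in MV4-11, 8CA had BBC3 alone called, higher, against 5.77% of genes lower and 4.58% higher. With 8AA at 8 h PMAIP1 and BID were lower and none higher, against 15.6% and 13.6%. With either of those scalings BID was not called and BBC3 was called higher (adjusted p = 0.0463 and 0.0494).

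In KG-1a more members were called. At 24 h, 8CA had 4 members lower (MCL1, BCL2L1, BID, BAX) and 4 higher (BCL2, BCL2L11, PMAIP1, BBC3), where 24.0% of all genes were called lower and 23.4% higher. With 8AA at 24 h 3 were lower (PMAIP1, BID, BAX) and 4 higher (BCL2, BCL2A1, BCL2L11, BBC3), against 26.6% and 25.4%. At 8 h, 8CA had PMAIP1 alone called, higher, against 0.181% of genes lower and 0.700% higher. With the 8AA 24 h libraries left out of the fit 739 genes in place of 112 were called, BCL2L1 among them (adjusted p = 0.0403). That fit was chosen after seeing the data. With 8AA at 8 h BCL2, PMAIP1 and BAX were lower and BCL2L11 was higher, against 18.0% and 16.7%. The median log2 fold change of the members tested lay between −0.16 and 0.03 over the 8 comparisons, beside −0.005 to 0.013 for all genes. BAX and BID were each called lower in 5 of 8 comparisons and higher in none, BBC3 was higher in 4 and lower in none, and BAK1 was called in none. The share of all genes with such counts over the 8 comparisons was not computed. Some of these calls were lost in fits without 1 library or under other settings, as given below. Comparisons of the same line and time share their untreated libraries.

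**Figure D2:**
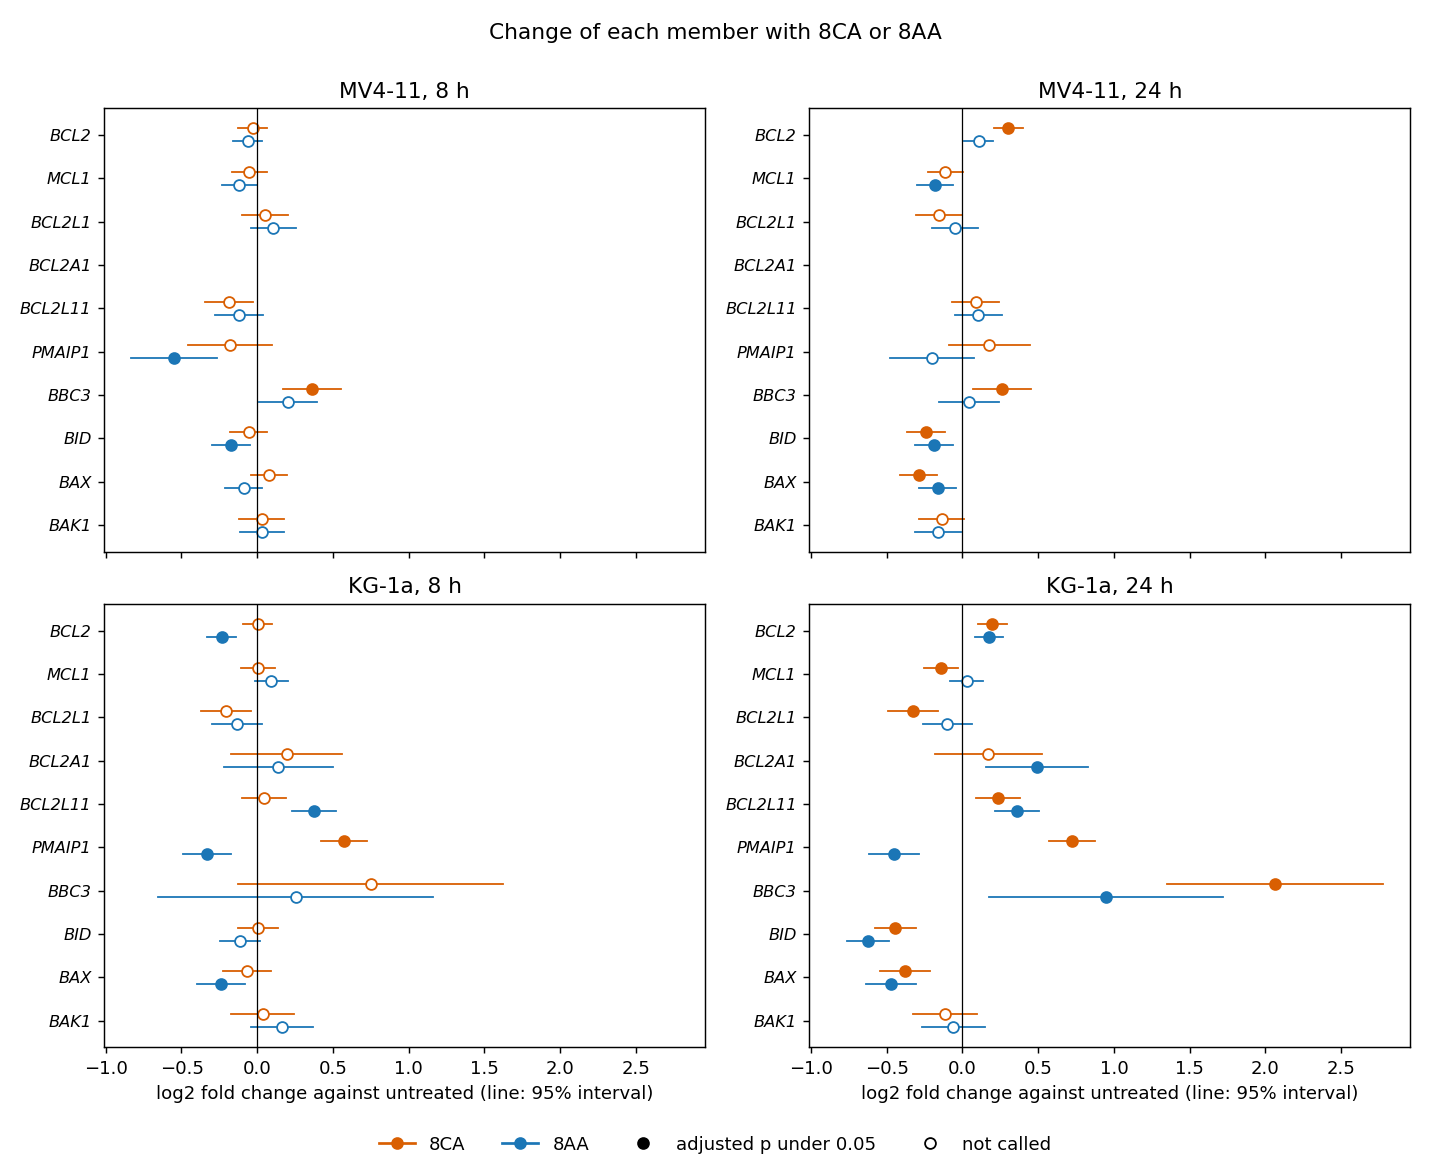
log2 fold change of each member against untreated cells of the same line and time, with its 95% interval, for 8CA (orange) and 8AA (blue). Filled points are called (adjusted p under 0.05) and open points are not. BCL2A1 was not tested in MV4-11, and BBC3 has the widest intervals in KG-1a, where its counts were low.

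Among the anti-apoptotic members, BCL2 rose modestly at 24 h. In MV4-11 at 24 h BCL2 stood at 278 and 281 CPM untreated, 356 and 333 CPM with 8CA, and 300 and 301 CPM with 8AA, where CPM here and below is scaled by TMM within a line. The treated libraries all lay above the untreated ones. The increase with 8CA was 1.23-fold (log2 fold change 0.30 ± 0.045, SE, adjusted p = 6.33e-05), and that with 8AA, 0.11 ± 0.045, was not called (adjusted p = 0.0896). It was called under 4 of 7 other settings, with library size only (adjusted p = 0.0191), upper-quartile scaling (0.0256), the replicate block (0.0399) and 1 fit of all 24 libraries (0.0355). In KG-1a at 24 h BCL2 stood at 295 and 289 CPM untreated, 339 and 331 CPM with 8CA and 317 and 341 CPM with 8AA. Both increases were called, 1.15-fold with 8CA (adjusted p = 0.00185) and 1.13-fold with 8AA (adjusted p = 0.00398). The 8AA call was lost without library B of untreated KG-1a at 24 h (0.15, adjusted p = 0.057). At 8 h in KG-1a the direction with 8AA was the opposite, as BCL2 was 292 and 305 CPM untreated and 254 and 253 CPM with 8AA (1.18-fold lower, adjusted p = 8.42e-04).

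MCL1, a short-lived protein that restrains BAK1, moved little. It was 197 and 197 CPM in untreated KG-1a at 24 h, 177 and 180 CPM with 8CA and 192 and 210 CPM with 8AA. The 8CA libraries lay below the untreated ones, by 1.10-fold (adjusted p = 0.0363), but this call held in none of the 4 fits without 1 library (highest adjusted p 0.123), nor with library size only, upper-quartile scaling or DESeq2. In MV4-11 at 24 h MCL1 was 239 and 255 CPM untreated, 230 and 226 CPM with 8CA and 217 and 219 CPM with 8AA. The decrease with 8AA was 1.13-fold (adjusted p = 0.0205). This call was lost without library B of the untreated cells or without either 8AA library (−0.13 to −0.19). It was also lost with library size only (adjusted p = 0.0988) or upper-quartile scaling (0.0589). Beyond these no change in MCL1 was called in the other 6 comparisons in the main fits. In KG-1a at 8 h, MCL1 was called higher with 8AA (0.09, adjusted p = 0.0484) when the 8AA 24 h libraries were left out. That fit was chosen after seeing the data.

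BCL2L1, which encodes BCL-XL, was called once. In KG-1a at 24 h it stood at 59.4 and 63.0 CPM untreated, 50.5 and 47.0 CPM with 8CA and 61.2 and 52.7 CPM with 8AA. With 8CA both libraries lay below the untreated ones, 1.25-fold (adjusted p = 0.00268). With 8AA the libraries overlapped the untreated range and the change of −0.10 (95% interval −0.26 to 0.06) was not called, though it was called without library A of 8AA (−0.21). BCL2A1, an NF-κB target of myeloid cells, had 76 and 88 counts in untreated KG-1a at 24 h, 105 and 96 under 8CA and 160 and 108 under 8AA. Its increase with 8AA was 1.41-fold (adjusted p = 0.0158). That call was lost without library A of the untreated cells and without library A of 8AA (0.31 at the lowest, highest adjusted p 0.189), and under DESeq2 (adjusted p = 0.0831).

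**Figure D3:**
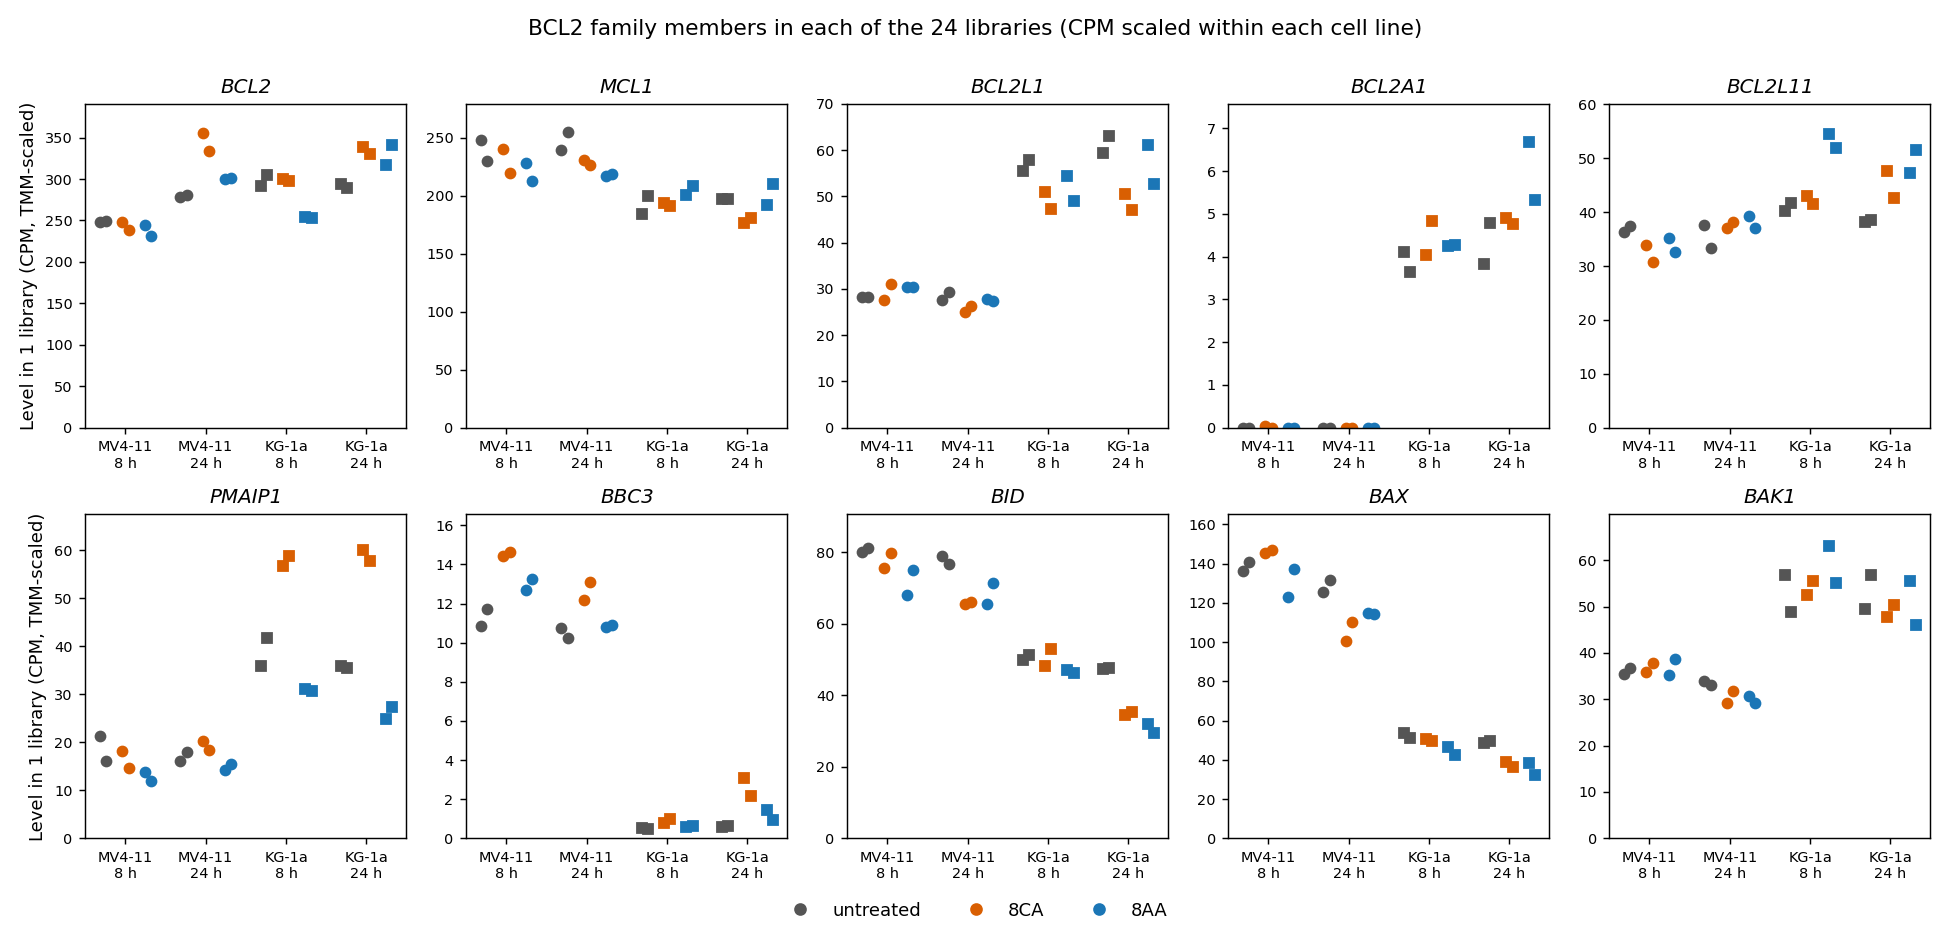
Level of each member in each of the 24 libraries (CPM scaled by TMM within a line; y axes start at 0 and differ by gene), for untreated cells (grey), 8CA (orange) and 8AA (blue). PMAIP1 in KG-1a shows the 3 treatments apart at both times, with 8CA libraries between 56.8 and 60.1 CPM and 8AA libraries between 24.8 and 31.1 CPM.

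The BH3-only gene PMAIP1, which encodes NOXA, the partner and antagonist of MCL1, moved in opposite directions with the analogs in KG-1a. At 24 h it stood at 35.9 and 35.6 CPM untreated, 60.1 and 57.8 CPM with 8CA and 24.8 and 27.4 CPM with 8AA. At 8 h it stood at 35.9 and 41.8 CPM untreated, 56.8 and 58.9 CPM with 8CA and 31.1 and 30.7 CPM with 8AA. At both times every 8CA library lay above and every 8AA library below the untreated ones. With 8CA PMAIP1 rose 1.65-fold at 24 h (log2 fold change 0.72 ± 0.072, SE, adjusted p = 1.14e-06) and 1.49-fold at 8 h (0.57 ± 0.072, adjusted p = 5.13e-04). With 8AA it fell by 0.45 ± 0.077 at 24 h on the log2 scale (1.37-fold lower, adjusted p = 1.49e-04) and by 0.33 ± 0.075 at 8 h (1.26-fold lower, adjusted p = 0.00297). At 24 h the decrease lay between −0.52 and −0.38 in the fits without 1 library, all called, and at 8 h the call was lost without library B of the untreated cells (−0.21, adjusted p = 0.0718).

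PMAIP1 was lower and less steady in MV4-11. It stood at 21.3 and 16.2 CPM untreated at 8 h, 18.2 and 14.7 CPM with 8CA and 13.8 and 11.9 CPM with 8AA. Both 8AA libraries, and library B of 8CA, lay below both untreated ones. The decrease with 8AA was 1.46-fold (adjusted p = 0.00589). That call was lost without library A of the untreated cells or library B of 8AA (−0.34 at the smallest). At 24 h it stood at 16.2 and 18.1 CPM untreated, 20.4 and 18.3 CPM with 8CA and 14.3 and 15.5 CPM with 8AA. Neither change was called (0.18, 95% interval −0.09 to 0.44, with 8CA and −0.20, −0.48 to 0.08, with 8AA).

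BBC3 encodes PUMA, a BH3-only protein that binds every anti-apoptotic member. In KG-1a the untreated libraries at 24 h held 12 and 12 reads of it, those with 8CA 66 and 44, and those with 8AA 35 and 19. All treated libraries exceeded the untreated ones. The increase was 4.18-fold with 8CA (log2 fold change 2.06 ± 0.34, SE, adjusted p = 4.48e-05), and 1.93-fold with 8AA (0.95 ± 0.36, adjusted p = 0.0326). The first kept its call in every fit that left out 1 library (1.77 to 2.27). The second lost it without either untreated library or without library A of 8AA (0.57 to 0.99), and under DESeq2 (adjusted p = 0.131). At 8 h the untreated libraries held 10 and 10 reads, 8CA libraries 16 and 19, and 8AA libraries 13 and 15, and neither change was called (95% intervals −0.13 to 1.62 and −0.66 to 1.16). Even after 24 h of 8CA the level in KG-1a, 1.41 and 1.00 RPKM, stayed below that of untreated MV4-11.

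In MV4-11 the shift in BBC3 was small. It was 10.8 and 11.7 CPM untreated at 8 h and 14.4 and 14.6 CPM with 8CA, and 10.8 and 10.3 CPM untreated at 24 h and 12.2 and 13.1 CPM with 8CA. The libraries did not overlap, with increases of 1.29-fold (adjusted p = 0.0179) at 8 h and 1.20-fold (adjusted p = 0.0264) at 24 h. In 3 of the 4 fits without 1 library neither call held (highest adjusted p 0.133 and 0.151), all but those without library B of the untreated cells at 8 h and library A of 8CA at 24 h, and under DESeq2 (adjusted p = 0.112 and 0.144).

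The sequences before the RefSeq starts of PMAIP1 and BBC3 (GRCh38.p14) are shown because these BH3-only genes had the largest changes with 8CA, and the largest differences between the analogs, of the members in KG-1a at 24 h. The window for PMAIP1 is chr18:59899746-59899947 on the + strand and that for BBC3 is chr19:47232767-47232917 on the − strand, each written 5′ to 3′. They hold the part of the 250 bases before the start that lies in no GENCODE exon of the gene, 202 bases for PMAIP1 and 151 for BBC3. Capitals mark matches, on either strand, to TGACGT (the core of ATF and CREB sites), CACGTG (the E-box of MYC and USF), GGGCGG (the GC box), CCAAT and TATAAA.
PMAIP1: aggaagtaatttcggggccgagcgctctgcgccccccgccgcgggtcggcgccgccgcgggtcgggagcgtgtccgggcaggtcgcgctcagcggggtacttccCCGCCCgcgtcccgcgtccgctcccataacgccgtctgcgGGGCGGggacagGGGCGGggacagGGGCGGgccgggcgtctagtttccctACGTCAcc
BBC3: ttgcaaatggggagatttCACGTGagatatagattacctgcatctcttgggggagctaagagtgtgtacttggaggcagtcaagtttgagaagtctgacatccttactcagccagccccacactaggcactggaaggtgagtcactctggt
The 250 bases before the start of PMAIP1 hold TGACGT, found in 7.1% of 35116 promoter windows of that length, and GGGCGG, found in 42.6%. Those of BBC3 hold CACGTG (6.3% of windows) and CCAAT (32.0%), the latter in the stretch not printed, and neither of the motifs named for PMAIP1. The motif TATAAA (10.7% of windows) is in neither gene's window. The 250 bases of PMAIP1 hold 36 CpG and 72.8% GC, and those of BBC3 4 CpG and 49.2% GC, beside a median of 11 CpG over all windows. Of the 9 members with an entry in the RefSeq table, PMAIP1 alone held TGACGT. The motif CACGTG was also in the window of BAX and in 2 of 5 windows of BID. A match is a description of the letters, and other starts of these genes were not searched. Gene counts do not separate the transcripts of a gene.

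BCL2L11, which encodes BIM, rose in KG-1a. At 24 h it stood at 38.2 and 38.6 CPM untreated, 47.7 and 42.6 CPM with 8CA and 47.2 and 51.5 CPM with 8AA, and at 8 h at 40.3 and 41.7 CPM untreated, 43.0 and 41.6 CPM with 8CA and 54.5 and 51.9 CPM with 8AA. With 8AA all libraries lay above the untreated ones at both times. The increase with 8AA was 1.28-fold at 24 h (adjusted p = 4.06e-04) and 1.30-fold at 8 h (adjusted p = 5.34e-04), and both calls held in every fit that left out 1 library. With 8CA the increase of 1.18-fold at 24 h (adjusted p = 0.0116) was lost without either untreated library or without library A of 8CA (0.13 at the smallest, highest adjusted p 0.216). In MV4-11 no change in BCL2L11 was called, with log2 fold changes between −0.18 and 0.10.

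BID, which links death receptors to mitochondria once cleaved by caspase 8, fell in both lines. In KG-1a at 24 h it stood at 47.2 and 47.5 CPM untreated, 34.3 and 35.4 CPM with 8CA and 31.9 and 29.6 CPM with 8AA. The groups did not overlap. The decrease was 1.36-fold with 8CA (log2 fold change −0.44 ± 0.065, SE, adjusted p = 4.72e-05) and 1.54-fold with 8AA (−0.62 ± 0.065, adjusted p = 1.18e-06). Both calls held in every fit that left out 1 library, with −0.68 to −0.57 for 8AA. At 8 h in KG-1a neither change was called. In MV4-11 at 24 h BID was 78.8 and 76.7 CPM untreated, 65.4 and 66.1 CPM with 8CA and 65.3 and 71.4 CPM with 8AA, so both treatments lay below the untreated libraries. The decrease was 1.18-fold with 8CA (adjusted p = 0.00345) and 1.14-fold with 8AA (adjusted p = 0.0265), and the latter was lost without either untreated library or library A of 8AA (highest adjusted p 0.248), with library size only (0.0742), upper-quartile scaling (0.0636) and DESeq2 (0.0527). The decrease with 8AA at 8 h, 1.13-fold (adjusted p = 0.0359), was likewise lost without either untreated library or library A of 8AA (highest adjusted p 0.26), and with library size only (0.0801), upper-quartile scaling (0.101), DESeq2 (0.0602) and 1 fit of all 24 libraries (0.0771). The summed RPKM of the 4 BH3-only members in KG-1a at 24 h was 39.2 in both untreated libraries, 48.4 and 46.5 under 8CA, and 30.5 and 31.4 under 8AA. PMAIP1 made up 42.1% and 41.7% of that sum untreated, 57.1% and 57.2% under 8CA and 37.5% and 40.3% under 8AA.

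Of the effectors, BAX fell and BAK1 was not called. In KG-1a at 24 h BAX stood at 48.8 and 49.4 CPM untreated, 38.8 and 36.6 CPM with 8CA and 38.2 and 32.3 CPM with 8AA, with no overlap with the untreated cells. The decrease was 1.30-fold with 8CA (log2 fold change −0.38 ± 0.077, SE, adjusted p = 8.19e-04) and 1.39-fold with 8AA (−0.47 ± 0.077, adjusted p = 9.79e-05). Both calls held in every fit that left out 1 library, with −0.61 to −0.36 for 8AA. At 8 h with 8AA it was 46.7 and 42.4 CPM against 53.8 and 51.2 CPM (1.18-fold lower, adjusted p = 0.0222), a call lost without library A of the untreated cells or library B of 8AA (highest adjusted p 0.205). In MV4-11 at 24 h BAX was 126 and 132 CPM untreated, 101 and 110 CPM with 8CA and 115 and 114 CPM with 8AA. It was 1.22-fold lower with 8CA (adjusted p = 8.42e-04). The 1.12-fold decrease with 8AA (adjusted p = 0.042) held in none of the 4 fits without 1 library and was lost in 4 of 7 other settings, with library size only (adjusted p = 0.133), upper-quartile scaling (0.107), DESeq2 (0.0577) and 1 fit of all 24 libraries (0.105). BAK1, the other pore former, had log2 fold changes between −0.16 and 0.16 in the 8 comparisons, none called, with 95% intervals that reached −0.33 and 0.37. In KG-1a with 8AA at 24 h its libraries were 55.6 and 46.0 CPM, around the 49.6 and 56.8 CPM of the untreated cells.

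The analogs differ at position 8 of adenosine, which carries chlorine in 8CA and an amino group in 8AA, and they were compared directly at the same dose and time in 4 pairs of groups. Over these pairs 38 tests of a member gave 10 calls, each adjusted over all genes tested. In KG-1a at 24 h 5 members differed, where 42.0% of all genes did. PMAIP1 was 2.26-fold lower with 8AA than with 8CA (log2 fold change −1.18 ± 0.074, SE, adjusted p = 6.09e-09) and BBC3 2.17-fold lower (−1.11 ± 0.26, adjusted p = 0.00209), and both calls held without any 1 library (highest adjusted p 5.68e-07 and 0.0488). MCL1 was 1.12-fold higher with 8AA (adjusted p = 0.0167) and BCL2L1 1.17-fold higher (adjusted p = 0.0271), while BID was 1.13-fold lower (adjusted p = 0.0396). These last calls did not hold in every fit that left out 1 library. MCL1 and BID were lost without either 8CA library or library B of 8AA, and BCL2L1 without library B of 8CA or library A of 8AA (highest adjusted p 0.103, 0.182 and 0.233). The BID call was also lost with library size only (adjusted p = 0.173), upper-quartile scaling (0.0932), no filter (0.0648) and DESeq2 (0.11). Without library A of 8AA, BCL2L11 and BAX were called in addition, and without library B of 8AA, BCL2A1. At 8 h in KG-1a 3 members differed, where 30.4% of genes did. PMAIP1 was 1.87-fold lower with 8AA (−0.90 ± 0.072, adjusted p = 3.73e-07), BCL2 1.18-fold lower (adjusted p = 9.85e-04) and BCL2L11 1.26-fold higher (adjusted p = 0.00167). BAX (−0.17) was called with the replicate block (adjusted p = 0.0498) and without the 8AA 24 h group (adjusted p = 0.0187).

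In MV4-11 the analogs differed in fewer members. At 24 h 2 members were called where 21.2% of all genes were. BCL2 was 1.15-fold lower with 8AA (−0.20 ± 0.045, adjusted p = 0.00554), a call lost without library A of 8CA (−0.15, adjusted p = 0.0985). PMAIP1 was 1.30-fold lower (−0.38 ± 0.13, adjusted p = 0.0461), a call that held in none of the 4 fits without 1 library (highest adjusted p 0.275), nor with library size only or DESeq2. At 8 h no member was called by edgeR as run here, where 6.66% of genes were, nor by DESeq2, although BAX (−0.17) and PMAIP1 (−0.37) had unadjusted p of 0.00995 and 0.0153 in edgeR. BAX was called without library B of 8AA and with the replicate block (adjusted p = 0.0237), and PMAIP1 with no filter on low counts (adjusted p = 0.0112). For the 28 differences not called, the 95% intervals reached at most 0.66 on the log2 scale in MV4-11 at 8 h, 0.41 in MV4-11 at 24 h, 0.64 in KG-1a at 24 h and, leaving out BBC3 (1.29), 0.40 in KG-1a at 8 h. Differences up to those bounds remain possible.

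**Figure D4:**
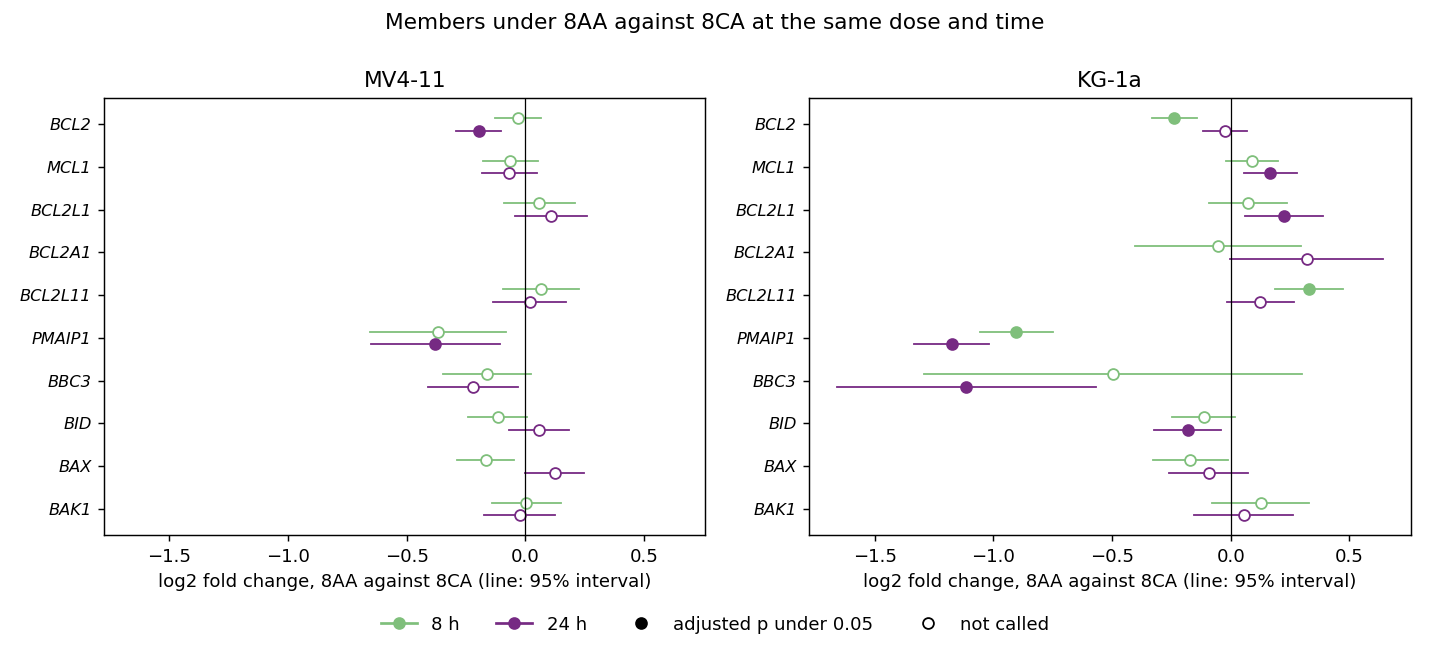
log2 fold change of each member with 8AA against 8CA in the same line at 8 h (green) and 24 h (purple), with its 95% interval. Filled points are called. In KG-1a PMAIP1 lies at −0.90 at 8 h and −1.18 at 24 h, and BBC3 at −1.11 at 24 h.

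The change at 24 h was tested against that at 8 h in the same line. With 8CA in MV4-11, 2 members differed, where 16.3% of all genes did, as BCL2 moved up by 0.33 more (adjusted p = 0.00234) and BAX down, by −0.37 (adjusted p = 0.0062). With 8AA in MV4-11 no member was called by edgeR, where 4.63% of genes were, nor by DESeq2, while BCL2 and BCL2L11 had an unadjusted p under 0.05 in edgeR. With 8CA in KG-1a 3 members differed against 23.9% of genes. BID was lower at 24 h by −0.44 (adjusted p = 0.0022), while BCL2 (0.20, adjusted p = 0.0353) and BAX (−0.31, adjusted p = 0.0454) were called in none of the 8 fits without 1 library. MCL1 (−0.14) was called with 8CA in KG-1a when the 8AA 24 h group was left out of the fit (adjusted p = 0.0426). With 8AA in KG-1a 2 members differed against 18.3% of genes, BCL2 by 0.41 (adjusted p = 4.99e-04) and BID by −0.51 (adjusted p = 0.0012). These calls held in all 8 fits without 1 library (0.36 to 0.46 and −0.57 to −0.46). Without library A of 8AA at 24 h, BAX (−0.37, adjusted p = 0.0043) and BAK1 (−0.37, adjusted p = 0.0143) were called as well. The difference between the times in PMAIP1 in KG-1a was not called with either analog, at 0.15 (95% interval −0.07 to 0.37) with 8CA and −0.12 (−0.35 to 0.11) with 8AA. Untreated cells at 24 h against 8 h had 1 member called in MV4-11, BCL2 at 0.17 (adjusted p = 0.0401), where 5.54% of genes were, and that call was lost in all 4 fits without 1 library. In KG-1a none was called by edgeR, where 4.45% of genes were, nor by DESeq2, and the lowest unadjusted p in edgeR was 0.123, for PMAIP1.

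The response of MV4-11 was tested against that of KG-1a in a fit of all 24 libraries, for the 9 members with counts in both lines. With 8CA at 24 h 2 members differed, where 11.2% of all genes did. The change in BBC3 was smaller in MV4-11 by −1.78 ± 0.31 on the log2 scale (adjusted p = 1.55e-04) and that in PMAIP1 by −0.52 ± 0.15 (adjusted p = 0.023). The latter call was lost without library B of either MV4-11 group, without either untreated KG-1a library or without library A of 8CA in KG-1a (highest adjusted p 0.138). At 8 h with 8CA PMAIP1 alone differed, by −0.74 ± 0.15 (adjusted p = 0.0111), where 1.15% of genes did, a call lost without library A of either untreated group or library B of 8CA in MV4-11 (highest adjusted p 0.146). With 8AA at 24 h BID (0.46, adjusted p = 5.37e-04) and BAX (0.33, adjusted p = 0.0188) fell less in MV4-11, where 22.3% of genes differed. The BID call held in all 8 fits without 1 library (0.33 to 0.53). BBC3 (−0.89, adjusted p = 0.0531), MCL1 (−0.19, adjusted p = 0.0861) and BCL2L11 (−0.23, adjusted p = 0.101) were not called, but BBC3 was called under 4 of 6 other settings and MCL1 and BCL2L11 under 3, library size only, upper-quartile scaling and no filter among them for each. Without library A of 8AA in KG-1a, MCL1, BCL2L11 and BCL2 (−0.17, adjusted p = 0.0474) were called, and without library B, BBC3. The BAX call was lost without library A of untreated MV4-11, either untreated KG-1a library or library B of 8AA in KG-1a (0.14 at the smallest, highest adjusted p 0.333). At 8 h with 8AA, where 11.1% of genes differed, BCL2L11 was called at −0.45 (adjusted p = 0.00438) and BCL2 at 0.21 (adjusted p = 0.0294), while BCL2 fell short in 7 of the 8 fits without 1 library, all but that without library B of 8AA in MV4-11.

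Other genes of the death pathways were counted by list and named by rule. Named were up to 3 genes per direction called alike in all 4 comparisons at 24 h and, where fewer than 2 were, the list's largest call. A like direction in all 4 thus follows from the choice, and the share of all genes called so was not computed. The named genes were not checked in MV4-11 without 1 library or under other scalings. Of all genes at 24 h, those called lower and higher in MV4-11 made up 22.7% and 21.2% under 8CA, and 15.3% and 13.9% under 8AA. In KG-1a the shares were 24.0% and 23.4% under 8CA, and 26.6% and 25.4% under 8AA. Without library A or without library B of 8AA in KG-1a, no list count with 8AA in that line moved by more than 1 gene, and every gene named below kept its call except VDAC3. Of 13 other BCL2 relatives, the filter left 10 in MV4-11 and 9 in KG-1a. At 24 h 2 were lower and 3 higher with 8CA in each line, 2 and 2 under 8AA in MV4-11, and in KG-1a 2 and 4 under 8AA. BMF, a BH3-only gene, rose in all 4 comparisons, by 0.87 and 0.71 on the log2 scale with 8CA and 8AA in MV4-11 and by 1.45 and 1.61 in KG-1a. BNIP3, a mitophagy receptor, fell in all 4, at −0.89 and −0.33 in MV4-11 and −0.50 and −0.37 in KG-1a.

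Of the 15 genes of the apoptosome and caspases, 5 were lower and 1 higher with 8CA and 3 and 1 with 8AA in MV4-11 at 24 h, while in KG-1a 7 and 0 were so under 8CA and 6 and 5 under 8AA. CYCS, which encodes cytochrome c, fell in all 4 comparisons, at −0.49 and −0.49 in MV4-11 and −0.79 and −0.91 in KG-1a. The mitochondrial genes HTRA2, a protease (−0.49, −0.25, −0.26 and −0.37), and AIFM1, the apoptosis-inducing factor (−0.41, −0.25, −0.28 and −0.23), also fell in all 4, given in the order 8CA and 8AA in MV4-11, then in KG-1a. Of 7 genes for outer membrane channels and mitochondrial shape, 4 were lower with 8CA and 4 with 8AA in MV4-11, 3 with 8CA and 5 with 8AA in KG-1a, and none was higher. The channel gene VDAC1 fell by 0.40 and 0.30 in MV4-11 and by 0.50 and 0.74 in KG-1a, and VDAC3 fell by 0.38 and 0.15 in MV4-11 and by 0.40 and 0.14 in KG-1a, the last a call lost without library B of 8AA (−0.07, adjusted p = 0.15).

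Of 10 genes of the death receptor pathway, 9 were tested in MV4-11 and all 10 in KG-1a. In MV4-11 3 were lower and 2 higher with 8CA and 1 and 1 with 8AA, and in KG-1a 2 and 3 with 8CA and 3 and 3 with 8AA. FADD, the adaptor of death receptors, fell by 0.43 and 0.25 in MV4-11 and by 0.34 and 0.43 in KG-1a, while CFLAR, which encodes the caspase 8 inhibitor FLIP, rose by 0.48 and 0.45 in MV4-11 and by 0.40 and 0.41 in KG-1a. Of 7 inhibitor of apoptosis genes, 1 was lower in each comparison, and 2, 1, 3 and 3 were higher in the order above. BIRC3 rose in KG-1a, by 0.54 under 8CA and 0.94 under 8AA, and it was not tested in MV4-11. Of 8 genes for the turnover of MCL1 and NOXA proteins, 7 were tested, and 0 and 3 were lower and higher with 8CA in MV4-11, 0 and 0 with 8AA, 1 and 1 with 8CA in KG-1a and 4 and 2 with 8AA. HUWE1, a ubiquitin ligase of MCL1, was higher with 8CA (0.13 in MV4-11, 0.15 in KG-1a) and lower with 8AA in KG-1a (−0.44, adjusted p = 5.17e-07).

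Of 14 transcription factors known to act on family genes, the filter left 13 in MV4-11 and 11 in KG-1a. In MV4-11 at 24 h 3 were lower and 7 higher with 8CA and 3 and 0 with 8AA, and in KG-1a 1 and 6 with 8CA and 5 and 4 with 8AA. E2F1, a cell cycle regulator, fell in all 4 comparisons (−0.70, −0.36, −0.39 and −0.33). DDIT3, which encodes the stress factor CHOP, rose in KG-1a by 2.41 under 8CA and 0.89 under 8AA, and by 0.89 with 8CA in MV4-11, where 8AA left it at −0.05 (adjusted p = 0.754). The medians of the 7 lists at 24 h ran from −0.22 to 0.31, beside 0.002 to 0.013 for all genes tested.

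**Figure D5:**
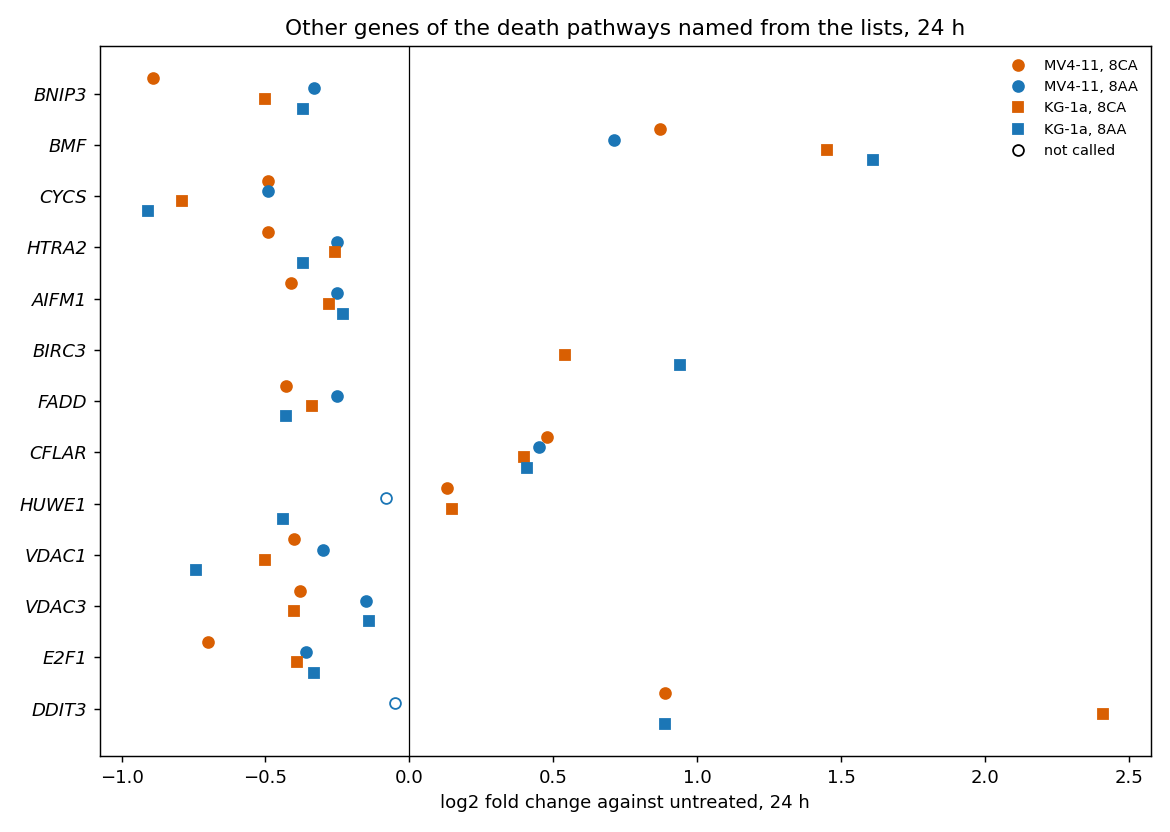
log2 fold change at 24 h of the named genes of the death pathways, for 8CA (orange) and 8AA (blue) in MV4-11 (circles) and KG-1a (squares). Filled points are called and open points are not; BIRC3 was not tested in MV4-11. BMF and CFLAR lie right of 0 and BNIP3, CYCS, FADD, VDAC1 and E2F1 left of 0 in all 4 comparisons.

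For the members other than BCL2L11, the gene with the most similar pattern was found by Pearson's r over the 12 group means of log2 CPM, after the mean of each line was subtracted, among 9177 or 9178 other genes. The points share libraries and scaling, so r is a description. The nearest to PMAIP1 was GRPEL2 (r = 0.976), to BBC3 CLCN7 (r = 0.97), to BID HSPD1 (r = 0.995) and to BAX POLDIP2 (r = 0.98), where HSPD1 encodes a mitochondrial chaperone. For BCL2 it was LOC100129034 (r = 0.968), for MCL1 SOD2 (r = 0.949), for BCL2L1 TNFRSF1B (r = 0.892) and for BCL2A1 NDE1 (r = 0.95). For BAK1 it was SNHG10 (r = 0.977).

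Positions in the table were chr18:60790579-60986657 for BCL2 (− strand), chr18:57567192-57571538 for PMAIP1 (+ strand) and chr19:47724079-47736023 for BBC3 (− strand). The processing notes name 2 builds, hg19 and hg38, and 0 of the 10 members start where RefSeq places them on GRCh38. These positions are therefore not to be joined with the GRCh38 windows above. Rows of other genes overlap MCL1, BCL2L11, BBC3, BID and BAX in the table, among them microRNA genes within BBC3 and BID, and how shared reads were counted is not stated by the sources at hand. In bulk RNA, fewer cells of a kind and less RNA per cell cannot be told apart.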

How the data were processed

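The data are RNA-seq of MV4-11 and KG-1a, with 2 libraries for each of 12 groups. For every gene the deposited table gives unnormalised read counts as whole numbers, with gene symbol, position and exon length. The submitters' processing notes name Trimmomatic, STAR 2.6.0, HTSeq 0.11.1, edgeR and the builds hg19 and hg38, without saying which step used what. Annotation and strand setting: not given in the sources used here. From the deposited counts, genes were filtered by filterByExpr (minimum count 10), scaled by TMM and tested with the quasi-likelihood test of edgeR 4.0.16 (R 4.3.3), two-sided, with 1 coefficient per group and no covariate, on the 12 libraries of a line or, between lines, on all 24. Benjamini-Hochberg adjustment ran over all genes tested at a threshold of 0.05, and intervals are at 95%. Settings tried instead were other scalings, no filter, DESeq2 1.42.0, a replicate block, 1 fit of all libraries and leaving out each library. Calls of other apoptosis genes were counted on 7 lists, naming up to 3 genes per direction called alike in all 4 comparisons at 24 h and, where a list had fewer than 2, its largest call. The members, lists and tests were chosen with earlier results of these data known. The pipeline was tested on simulated data. With 2 libraries per group the spread shared over groups and genes sets the precision, and library totals of 18633963 to 24520078 left 10 to 66 counts on BBC3 in a KG-1a library. Promoter sequences are from RefSeq (GRCh38.p14), which had an entry for 9 members. The letters A and B were not treated as pairs, since the correlation of A minus B between a treated and its untreated group ran from −0.15 to 0.269 and was not above 0.1 in every pair. The gene with the pattern most like that of BCL2L11 is not reported here.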

Additional observations from a re-analysis of the deposited data

Results flagged for a closer look

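In 38 tests of whether the change in a member at 24 h differed from that at 8 h, 7 were called, and in 36 tests of whether the change differed between the lines 7 were called, by edgeR's quasi-likelihood test of the difference itself. Of all genes, 4.63% to 23.9% were called in the tests between times and 1.15% to 22.3% in those between lines. Values are differences of log2 fold changes. Between the times, 8CA in MV4-11 gave BCL2 0.33 (adjusted p = 0.00234) and BAX −0.37 (adjusted p = 0.0062). In KG-1a 8CA gave BID −0.44 (adjusted p = 0.0022), and BCL2 0.195 (adjusted p = 0.0353) and BAX −0.31 (adjusted p = 0.0454), both called in none of the 8 fits without 1 library, and 8AA gave BCL2 0.41 (adjusted p = 4.99e-04) and BID −0.51 (adjusted p = 0.0012). As MV4-11 minus KG-1a, 8CA at 24 h gave PMAIP1 −0.52 (adjusted p = 0.023) and BBC3 −1.78 (adjusted p = 1.55e-04), and 8AA at 24 h gave BID 0.46 (adjusted p = 5.37e-04) and BAX 0.33 (adjusted p = 0.0188). At 8 h 8CA gave PMAIP1 −0.74 (adjusted p = 0.0111), and 8AA gave BCL2 0.21 (adjusted p = 0.0294) and BCL2L11 −0.45 (adjusted p = 0.00438). Between the lines the calls of PMAIP1, of BAX and of BCL2 were each lost in 3 to 7 of the 8 fits without 1 library. Groups of 2 libraries are too small for a check for outlying libraries.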

How the results depend on the processing

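No call of a member changed direction under any setting, where a member not called was taken to have no direction. In MV4-11 the 3 members called lower with 8AA at 24 h (MCL1, BID, BAX) were all lost with scaling by library size only and by upper quartile, where the 1 call was BCL2, higher (0.16 and 0.14, adjusted p = 0.0191 and 0.0256). With DESeq2 1 of the 3, MCL1, was called, and without 1 library 0 to 1 members were (genes 2179 to 2789, from 3726). The 1 with 8CA at 8 h became 0 with DESeq2 and 0 to 1 without 1 library (genes 548 to 693, from 1325). The 2 with 8AA at 8 h became 1 with DESeq2 and in 1 fit of all 24 libraries, and 0 to 1 without 1 library. Between the analogs in MV4-11, the 2 at 24 h became 1 with library size only and with DESeq2 and 0 to 1 without 1 library, and the 0 at 8 h became 1 with no filter (PMAIP1), 1 with the replicate block (BAX) and 0 to 1 without 1 library. The 1 called in untreated MV4-11 over time became 0 with DESeq2's size factors and with its test, and 0 in every fit without 1 library. For 8CA in KG-1a at 8 h the 112 genes called became 272 with no filter, 205 with the replicate block, 184 in 1 fit of all 24 libraries, 28 to 36 without 1 library, and 739 (2 members) without the 8AA 24 h group, a fit chosen after seeing the data. For 8AA in KG-1a at 8 h the 4415 genes became 2843 to 3286 without 1 library. Without 1 library the 5 members that differed between the analogs in KG-1a at 24 h became 2 to 6, the 3 that differed between times with 8CA became 1, and the 2 with 8AA became 2 to 4. Between the lines, the 2 with 8CA at 24 h became 1 to 2 without 1 library, and the 1 at 8 h became 0 to 1. The 2 with 8AA at 24 h became 5 with library size only, upper quartile or no filter, and 1 to 5 without 1 library, and the 2 at 8 h became 1 with library size only and with DESeq2's size factors or test, and 1 to 2 without 1 library. Levels per length in MV4-11 moved by more than 1 SD with library size only for MCL1 (58.3 RPKM), BID (28.3), BAK1 (14.7) and BCL2L1 (10.3), 4 of 20 levels. The cause of these shifts was not tested, beyond the smaller number of libraries in the fits without 1 library.

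Library size only lowered the share of called genes that were lower from 51.8% to 41.1% (8CA, 24 h), 52.4% to 36.2% (8AA, 24 h), 55.8% to 38.3% (8CA, 8 h) and 53.4% to 38.8% (8AA, 8 h) in MV4-11, and from 51.2% to 35.5% (8AA, 24 h) and 51.9% to 41.8% (8AA, 8 h) in KG-1a. With 8CA in KG-1a that share went from 50.6% to 45.6% at 24 h and from 20.5% to 15.3% at 8 h. With upper quartile it was 40.1%, 41.6% and 38.1% for 8AA at 24 h, 8CA at 8 h and 8AA at 8 h in MV4-11, and 38.8% for 8AA at 24 h in KG-1a. For 8CA at 24 h it was 43.9% in MV4-11 and 43.3% in KG-1a. At 8 h in KG-1a it was 48.8% with 8AA and, with 8CA, rose from 20.5% to 24.8%. The median of all genes moved to 0.108 for 8AA at 24 h in KG-1a with library size only. Crossing the letters of the KG-1a 8AA 24 h pair under the replicate block, also added after seeing the data, gave 7 members and 6385 genes called, from 7 and 6873 under the block with the letters as labelled.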
